A study of Canis lupus familiaris and Felis catus with 4 samples.

Results

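The let-7 family of miRNAs was examined in small RNA of urinary exosomes (UExos, nano-sized vesicles that cells shed into urine) from cats and dogs with kidney disease (KD) or with normal renal function (NR). The members were taken by name and not by a cut on their values, but with earlier results of these data known. They are mmu-let-7a-5p, mmu-let-7b-5p, mmu-let-7c-5p, mmu-let-7d-5p, mmu-let-7e-5p, mmu-let-7f-5p, mmu-let-7g-5p, mmu-let-7i-5p and mmu-miR-98-5p. These 9 of 1898 mature names fill 12 of the 2031 entries of the mature miRNA table, because let-7a-5p, let-7c-5p and let-7f-5p each have 2 genomic copies in the mouse. A read was present for 255 of the 1898 names in at least 1 library, and for all 9 members. Each group was 1 pooled library, made from 45 KD cats, 43 NR cats, 47 KD dogs and 37 NR dogs. The cats were clinical patients, grouped by serum creatinine, blood urea nitrogen and the veterinarian's diagnosis, and the paper describes the KD cats as older and lighter than the NR cats. Age and KD cannot be told apart in these pools. All reads, of cats and of dogs, were placed on mouse miRNAs, so reads of a cat or dog let-7 with bases other than those of the mouse may have been missed.

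A miRNA guides silencing proteins to messenger RNAs that pair with its seed, the bases near its 5′ end, and lowers their translation or stability. let-7 was found in the worm Caenorhabditis elegans as a regulator of developmental timing. In mammals its members build up as cells differentiate, the RNA-binding protein LIN28 blocks the maturation of their precursors, and known targets include RAS genes, HMGA2 and MYC. In the kidney, let-7b represses the receptor TGFBR1 in rodent models of fibrosis and so dampens TGF-beta signalling.

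The mature sequences are shown because the whole family shares 1 seed and the members can be told apart only by the bases outside it. They are written 5′ to 3′ as DNA letters, as deposited, with the seed (bases 2 to 8) in capitals.
mmu-let-7a-5p: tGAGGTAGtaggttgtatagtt
mmu-let-7b-5p: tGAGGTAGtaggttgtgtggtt
mmu-let-7c-5p: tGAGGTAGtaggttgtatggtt
mmu-let-7d-5p: aGAGGTAGtaggttgcatagtt
mmu-let-7e-5p: tGAGGTAGgaggttgtatagtt
mmu-let-7f-5p: tGAGGTAGtagattgtatagtt
mmu-let-7g-5p: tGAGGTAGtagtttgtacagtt
mmu-let-7i-5p: tGAGGTAGtagtttgtgctgtt
mmu-miR-98-5p: tGAGGTAGtaagttgtattgtt
Every member is 22 bases long. Counted from 1 at the 5′ end, and with the base of let-7a-5p first, let-7c-5p differs from let-7a-5p by A19G, let-7e-5p by T9G and let-7f-5p by G12A. The other members differ by A17G and A19G in let-7b-5p, T1A and T16C in let-7d-5p, G12T and T18C in let-7g-5p, G11A and A19T in miR-98-5p, and G12T, A17G, T18C and A19T in let-7i-5p. Of the 36 pairs of members, 4 differ by 1 base, and the most distant pair, let-7d-5p and let-7i-5p, differs by 6. The number of mismatches the alignment allowed is not given in the sources used here, so the split of reads between members 1 base apart is uncertain. Outside the family, only let-7k and miR-1961 carry the same bases 2 to 8 in this table, and both had 0 reads in all 4 libraries.

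The mature miRNA reads numbered 23784 in KD cats, 18704 in NR cats, 63355 in KD dogs and 20878 in NR dogs. The deposited log2 values differ from log2 of the counts by a fixed amount in each library, so a normalized value below is the read count times a factor of 2.36 in KD cats, 1.16 in NR cats, 0.531 in KD dogs and 0.689 in NR dogs. Of the family, 1 value is affected by the way results below 0 were deposited: the 1 read of let-7d-5p in NR dogs is written as 0. The miR-10a and miR-10b entries held 73.3% of the reads in KD cats, 44.7% in NR cats, 70.4% in KD dogs and 74.9% in NR dogs, which leaves a smaller part of each library to all other miRNAs where that share is larger. With 1 library per group no test between KD and NR was possible. Intervals are exact at 95%, binomial for shares and conditional for ratios of 2 counts, and cover counting error only. Fewer vesicles of one origin and less let-7 per vesicle cannot be told apart in pooled urine.

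The let-7 family took a smaller share of the miRNA reads in KD cats than in NR cats, and nearly the same share in KD dogs as in NR dogs. The 9 members summed to 145 reads in KD cats, a share of 0.610% (0.515 to 0.717%), and to 663 reads in NR cats, a share of 3.54% (3.28 to 3.82%). In dogs they summed to 640 reads in KD, a share of 1.01% (0.934 to 1.09%), and to 180 reads in NR, a share of 0.862% (0.741 to 0.997%). The intervals of the cat libraries lie far apart, and those of the dog libraries overlap. Outside the miR-10a, miR-10b, miR-486 and miR-3107 entries, the family held 4.36% of the reads in KD cats (3.69 to 5.11%) and 6.80% in NR cats (6.31 to 7.31%), against 5.12% in KD dogs (4.74 to 5.52%) and 3.65% in NR dogs (3.14 to 4.21%). By that measure the share was lower in KD cats and higher in KD dogs, and neither pair of intervals overlapped.

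let-7f-5p and let-7a-5p made up most of the family in every library. let-7f-5p, which lies in the let-7a/let-7d cluster and again beside miR-98, had 85 reads in KD cats and 303 in NR cats, and 327 reads in KD dogs and 85 in NR dogs. It ranked 16th among all names by reads in KD cats, 13th in NR cats, 16th in KD dogs and 19th in NR dogs. let-7a-5p, whose mature form is the same in worms and mammals, had 35 reads in KD cats and 186 in NR cats, and 212 reads in KD dogs and 62 in NR dogs. Together the pair held 82.8% of the family reads in KD cats, 73.8% in NR cats, 84.2% in KD dogs and 81.7% in NR dogs. The ratio of let-7f-5p to let-7a-5p reads was 2.43 in KD cats (1.62 to 3.71), 1.63 in NR cats (1.35 to 1.97), 1.54 in KD dogs (1.29 to 1.84) and 1.37 in NR dogs (0.977 to 1.93). The order of this pair was thus the same in all 4 libraries, though in NR dogs the interval reaches below 1.

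The other 7 members were low. let-7i-5p had 3 reads in KD cats and 74 in NR cats, and 29 reads in KD dogs and 10 in NR dogs. let-7g-5p had 9 reads in KD cats and 32 in NR cats, and 24 reads in KD dogs and 8 in NR dogs. let-7c-5p, encoded beside miR-99a on mouse chromosome 16, had 3 reads in KD cats and 26 in NR cats, and 10 reads in KD dogs and 6 in NR dogs. In cats all 3 of these were lower in KD. let-7i-5p was the third most abundant member in NR cats, and its 3 reads in KD cats are too few to give it a place. let-7b-5p, a repressor of TGFBR1 in rodents, had 4 reads in KD cats and 18 in NR cats, and 20 reads in KD dogs and 3 in NR dogs. miR-98-5p, a let-7 relative by its seed, had 0 reads in KD cats and 18 in NR cats, and 3 reads in each dog library. let-7e-5p, encoded with miR-99b and miR-125a, had 5 reads in each cat library, 12 in KD dogs and 2 in NR dogs. let-7d-5p, the only member that begins with A, had 1 read in KD cats, 1 in NR cats, 3 in KD dogs and 1 in NR dogs. Except for let-7i-5p in NR cats, these counts are too low to rank the lesser members within a library.

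**Figure D1:**
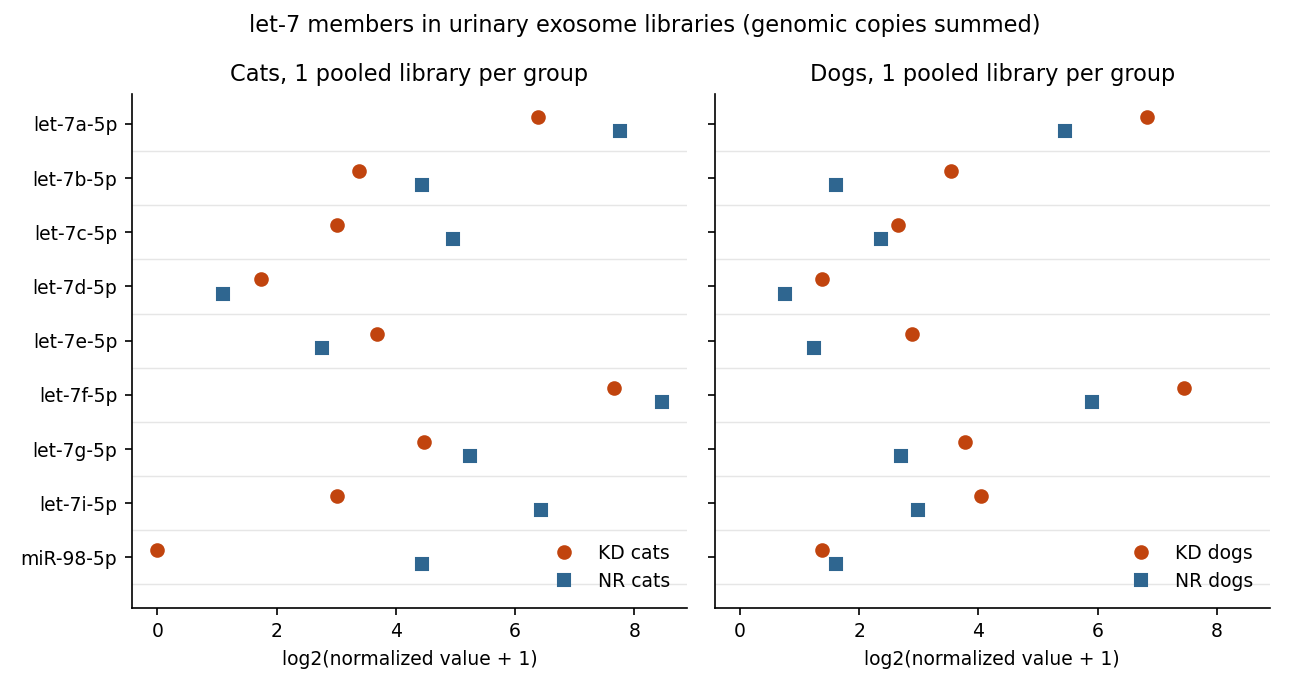
log2(normalized value + 1) of each let-7 member, with genomic copies summed, in the pooled libraries of cats (left) and dogs (right); circles are KD and squares NR, 1 library each. In cats 7 of 9 members lie lower in KD, all but let-7d-5p and let-7e-5p, and in dogs 8 of 9 lie higher in KD, all but miR-98-5p. No share of all names by direction alone is given, so neither count can be read as particular to the family. Past 2-fold, 31.5% of the names with a mean of at least 10 were lower and 20.5% higher in KD cats. In KD dogs 0% were lower and 49.0% higher. Over all names with a mean of at least 10, the median log2 change was -0.26 in cats and 0.98 in dogs. Most names thus lay higher in KD dogs as well, and several members rest on few reads.

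The make-up of the family, which does not depend on how the libraries are scaled, differed between the cat libraries mainly in let-7i-5p. let-7i-5p held 2.07% of the family reads in KD cats (0.429 to 5.93%) and 11.2% in NR cats (8.87 to 13.8%), an odds ratio against the other members of 0.168 (0.0335 to 0.524). In dogs it held 4.53% in KD (3.06 to 6.44%) and 5.56% in NR (2.70 to 9.98%), an odds ratio of 0.807 (0.373 to 1.89). let-7f-5p held 58.6% of the family reads in KD cats (50.2 to 66.7%) and 45.7% in NR cats (41.9 to 49.6%), an odds ratio of 1.68 (1.15 to 2.47). let-7e-5p held 3.45% in KD cats (1.13 to 7.86%) and 0.754% in NR cats (0.245 to 1.75%), an odds ratio of 4.70 (1.06 to 20.7) that rests on 5 reads in each library. Shares of 1 family are bound to each other, and with let-7i-5p left out of the total, an alternative chosen after its value was seen, the odds ratio was 1.41 for let-7f-5p (0.955 to 2.08) and 4.26 for let-7e-5p (0.964 to 18.7), so both intervals then include 1. miR-98-5p was at 0 of 145 family reads in KD cats, with an exact interval of 0 to 2.51%, against 2.71% in NR cats (1.62 to 4.26%). Its odds ratio in cats had an interval of 0 to 1.03, and of 0 to 0.929, which excludes 1, with let-7i-5p left out. Of the 18 member-by-species comparisons, whose intervals are not adjusted for their number, 3 excluded an odds ratio of 1 in cats and 0 in dogs. let-7a-5p stood at an odds ratio of 0.816 in cats (0.521 to 1.25) and 0.943 in dogs (0.657 to 1.36).

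**Figure D2:**
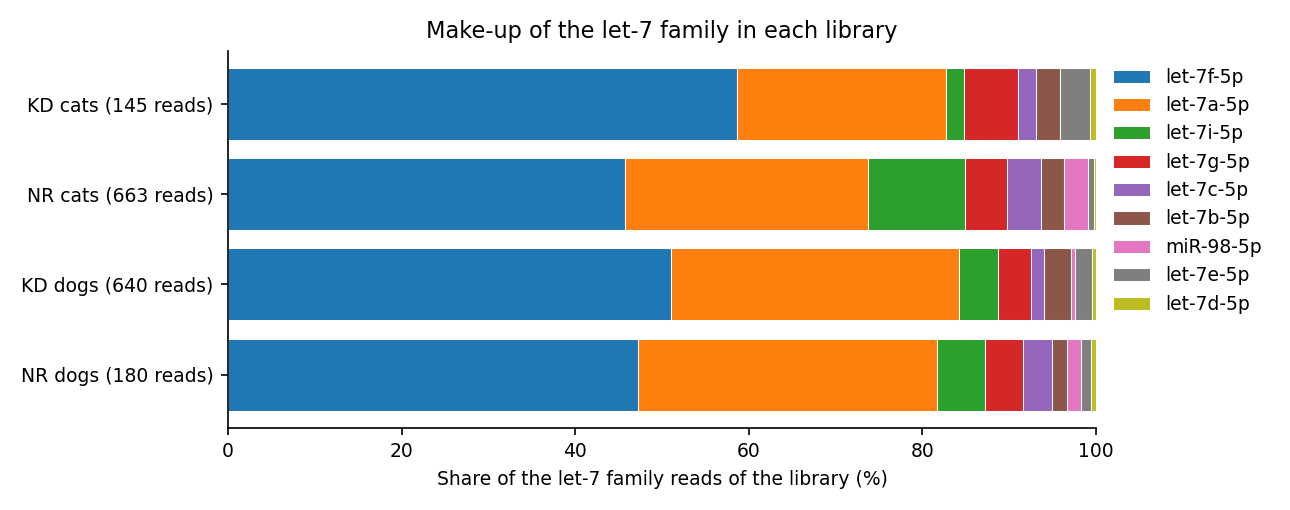
Share of each member in the let-7 family reads of a library, in percent, as stacked bars, with KD above NR for cats and then for dogs; the number of family reads stands beside each library. let-7f-5p and let-7a-5p fill 73.8 to 84.2% of every bar, and the let-7i-5p segment is 11.2% in NR cats and 2.07% in KD cats.

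On the normalized values the family was lower in KD cats than in NR cats. Summed over the 9 members it stood at 342 in KD cats and 768 in NR cats, a log2 change of -1.17 (-1.44 to -0.91), or 2.25-fold lower. let-7f-5p stood at 200.3 in KD cats and 351 in NR cats, a log2 change of -0.81 (-1.17 to -0.46). let-7a-5p stood at 82.5 in KD cats and 215 in NR cats, a log2 change of -1.38 (-1.95 to -0.86). let-7i-5p showed the lowest log2 change of the 8 members with reads in both cat libraries, -3.60 (-5.91 to -2.00), at 7.07 in KD cats and 85.7 in NR cats. Without let-7i-5p the summed change was -1.03 (-1.30 to -0.76). The intervals of these 3 members and of the sum exclude 0, and let-7f-5p, the most abundant member, had the smallest change of the 3.

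Among the lesser members in cats, let-7c-5p had a log2 change of -2.09 (-4.46 to -0.38), at 7.07 in KD cats and 30.1 in NR cats. let-7b-5p stood at 9.43 in KD cats and 20.8 in NR cats, a log2 change of -1.14 whose interval of -3.17 to 0.46 includes 0. The interval of let-7g-5p also includes 0, with a log2 change of -0.80 (-2.06 to 0.30). miR-98-5p, with 0 reads in KD cats, was at least 2.95-fold lower there on the normalized values when 0 is read as 3 reads in that library, and the exact interval of its log2 change lay below -1.11. let-7e-5p and let-7d-5p both had a log2 change of 1.03, with intervals of -1.09 to 3.14 and -5.27 to 7.32, so no difference was detectable for these at this depth.

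A change past 2-fold was read on log2((KD + 1)/(NR + 1)) of the normalized values, for names with a mean of at least 10 over the 2 libraries of a species. In cats 7 of the 9 members reached that mean, of which 5 were lower and 0 higher by over 2-fold, while 31.5% of all 73 names that reached it were lower and 20.5% were higher. The 5 were let-7a-5p, let-7b-5p, let-7c-5p, let-7i-5p and miR-98-5p. The last 4 reached the mean through NR cats alone, so a lower value in KD was built into their passing, and of the other 3 members only let-7a-5p was past 2-fold. With no minimum, 5 of 9 members were lower and 0 higher. No share of all names is given at that setting, so this count cannot be read as particular to the family. The median log2 change was -1.37 over the 7 members and -0.26 over the 73 names, and the summed family stood at -0.91 relative to the median of all names on the log2 scale. The 4 members that passed through NR cats alone also enter the median of the 7. With no minimum the median over the 9 members was -1.07.

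In dogs the normalized values of the family were higher in KD than in NR, in a comparison where most names lay higher. Summed over the members they were 339.8 in KD dogs and 124 in NR dogs, a log2 change of 1.45 (1.21 to 1.70), or 2.74-fold. let-7f-5p stood at 174 in KD dogs and 58.6 in NR dogs, a log2 change of 1.57 (1.22 to 1.93), and let-7a-5p at 113 in KD dogs and 42.7 in NR dogs, a log2 change of 1.40 (0.98 to 1.83). let-7b-5p had the highest log2 change, 2.36 (0.61 to 4.75), from 20 reads in KD dogs and 3 in NR dogs. let-7e-5p (2.21, with an interval of 0.04 to 5.41), let-7g-5p (1.21, with 0.01 to 2.57) and let-7i-5p (1.16, with 0.08 to 2.36) had intervals that barely exclude 0, and those of let-7c-5p, let-7d-5p and miR-98-5p include it. Only 3 of the 9 members, let-7a-5p, let-7f-5p and let-7i-5p, reached the mean of 10, the last through KD dogs alone, and 3 of these 3 were higher by over 2-fold. At a fold of 3, and at a fold of 2 under 5 of the 6 other scalings described below, 0 members were. Of all 49 names that reached it, 49.0% were higher and 0% lower by over 2-fold. The median log2 change was 1.38 over the 3 members and 0.98 over the 49 names, and the summed family stood 0.47 above the median of all names.

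**Figure D3:**
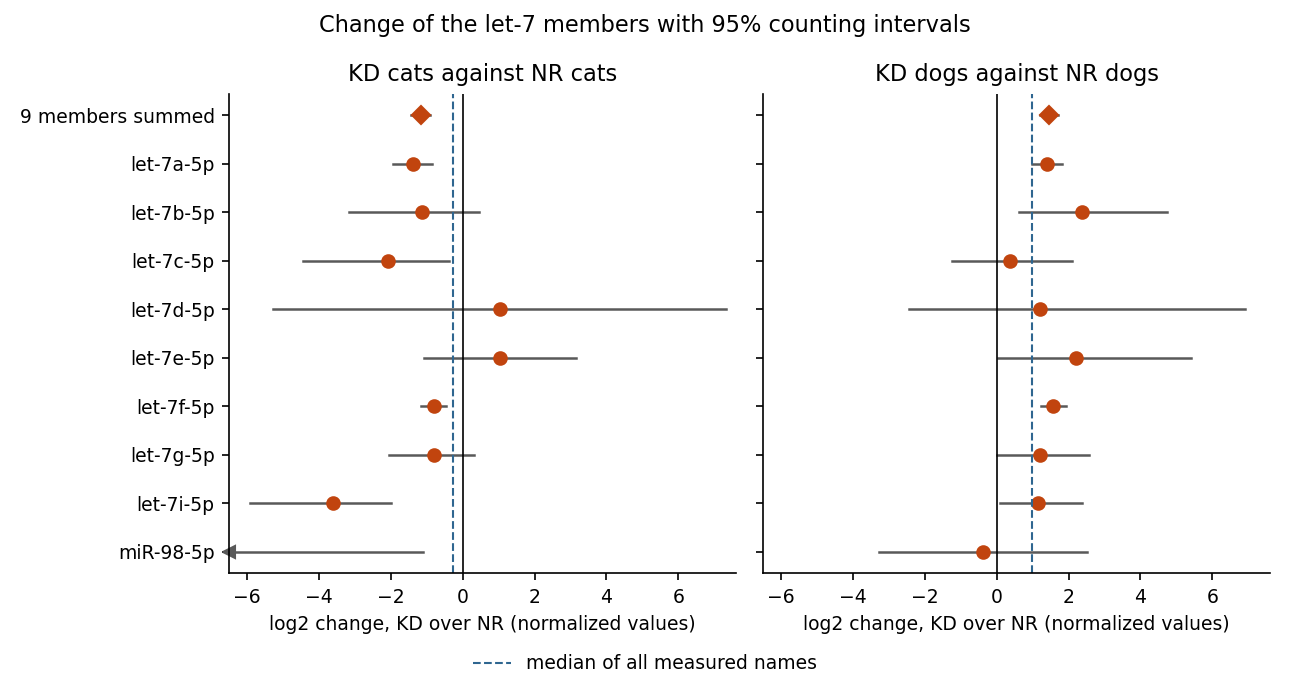
log2 change of KD over NR on the normalized values for the 9 members summed (diamond) and for each member (circles), in cats (left) and dogs (right). Bars are exact 95% counting intervals, the arrow marks miR-98-5p with 0 reads in KD cats, and the dashed line is the median of all measured names, -0.26 in cats and 0.98 in dogs; the sum lies left of that line in cats (-1.17) and right of it in dogs (1.45).

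The size of these changes, and in dogs the direction, depended on how the libraries were scaled, whereas the position of the family relative to the other miRNAs varied less. Under 7 scalings the summed family had a log2 change between -2.54 and -0.64 in cats, below 0 in all 7. In dogs it lay between -0.01 and 1.83, above 0 in 6 of 7. The median of all names moved with the scaling too, between -1.91 and 0.24 in cats and between -0.56 and 1.31 in dogs. Relative to that median the family stood between -0.91 and -0.63 in cats and between 0.47 and 0.55 in dogs. A scaling adds 1 constant to the log2 change of every name, so these differences vary only through the names that pass the minimum and the 1 added to each value. Of the single members, let-7a-5p, let-7b-5p, let-7c-5p, let-7f-5p, let-7g-5p and let-7i-5p were lower in KD cats under all 7 scalings, and let-7f-5p, let-7b-5p and let-7e-5p were higher in KD dogs under all 7. let-7a-5p in dogs was higher under 6.

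**Figure D4:**
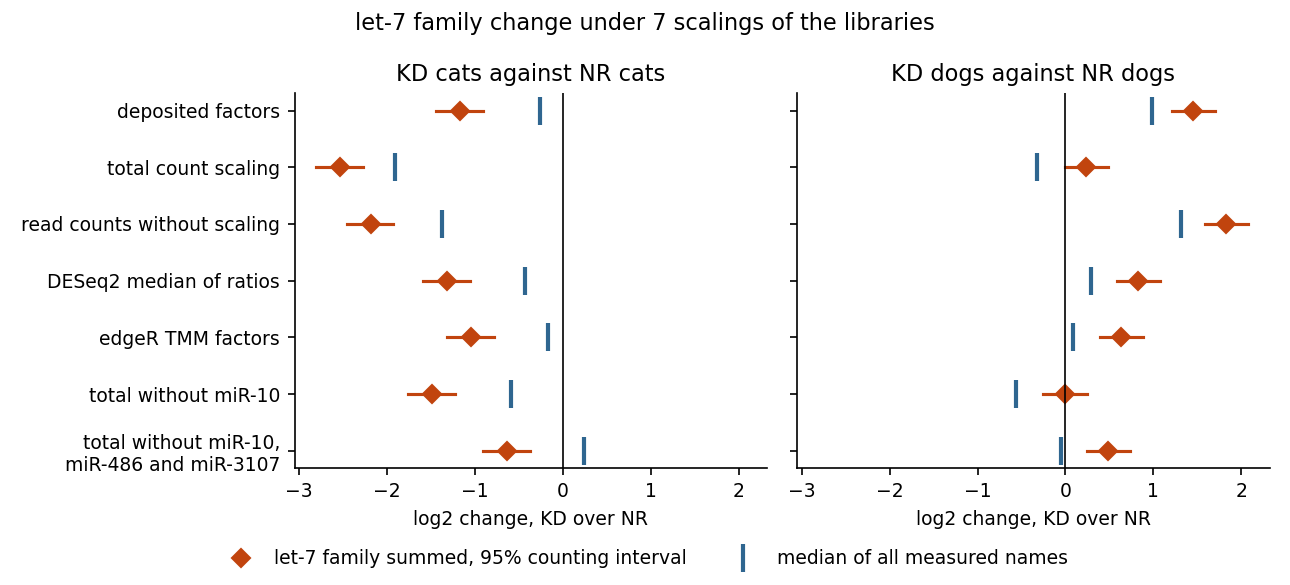
log2 change of the summed let-7 family (diamonds, with exact 95% counting intervals) and the median log2 change of all measured names (vertical ticks) under 7 scalings, in cats (left) and dogs (right). The diamond lies left of its tick in all 7 rows for cats, by 0.63 to 0.91, and right of it in all 7 rows for dogs, by 0.47 to 0.55.

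The genomic copies of a member carry the same mature sequence, and yet their counts were unequal and split in much the same way in every library. let-7a-5p lies on chr9:41536732-41536753 (plus strand) and chr13:48538239-48538260 (minus strand) of mm10. The chromosome 9 copy had 24 of 35 reads in KD cats, or 68.6% (50.7 to 83.1%), 122 of 186 in NR cats, or 65.6% (58.3 to 72.4%), 150 of 212 in KD dogs, or 70.8% (64.1 to 76.8%), and 43 of 62 in NR dogs, or 69.4% (56.3 to 80.4%). let-7f-5p lies on chrX:151912353-151912374 (plus strand) and chr13:48537889-48537910 (minus strand). Its chromosome X copy had 83.5% of the reads in KD cats (73.9 to 90.7%), 78.9% in NR cats (73.8 to 83.3%), 78.0% in KD dogs (73.1 to 82.4%) and 81.2% in NR dogs (71.2 to 88.8%). For both members all 4 intervals overlap. How a read with several locations was assigned to the copies is not stated, so the counts of single copies are uncertain, and a read counted at each copy would raise their sum. With the mean of the copies in place of the sum the family share was 0.351% in KD cats and 2.17% in NR cats, and 0.577% in KD dogs and 0.496% in NR dogs.

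Since the split hardly varied, the 2 copies of let-7a-5p and of let-7f-5p gave similar changes. In cats let-7a-5p had a log2 change of -1.32 (-2.02 to -0.68) on chromosome 9 and -1.52 (-2.59 to -0.58) on chromosome 13, and let-7f-5p -0.73 (-1.13 to -0.34) on chromosome X and -1.17 (-2.12 to -0.32) on chromosome 13. In dogs the same entries had 1.43 (0.93 to 1.95), 1.33 (0.57 to 2.15), 1.51 (1.12 to 1.91) and 1.79 (1.00 to 2.68). let-7c-5p was the exception in cats. Its copy on chr15:85706616-85706637 had 0 reads in KD cats and 20 in NR cats, at least 3.28-fold lower on the normalized values when 0 is read as 3 reads, with an exact interval of the log2 change below -1.28, whereas its copy on chr16:77599672-77599693 had 3 reads in KD cats and 6 in NR cats, a log2 change of 0.03 (-2.60 to 2.25). The share of the chromosome 15 copy was 0 of 3 reads in KD cats, with an interval of 0 to 70.8%, and 76.9% of 26 reads in NR cats, with 56.4 to 91.0%, so the split cannot be compared at this depth.

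**Figure D5:**
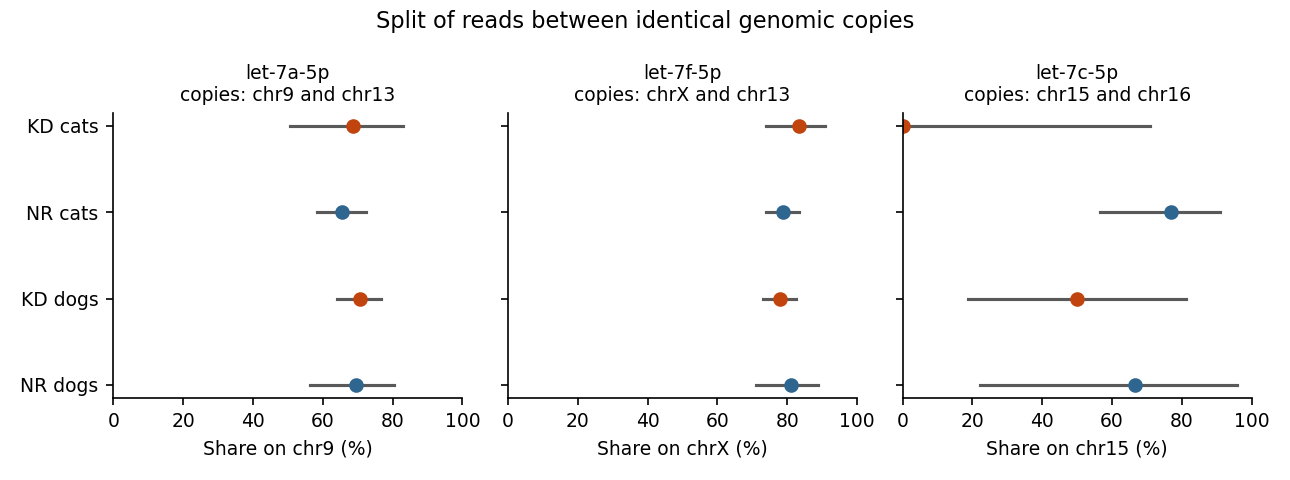
Share of reads on the larger of 2 identical genomic copies, in percent, for let-7a-5p (chromosome 9), let-7f-5p (chromosome X) and let-7c-5p (chromosome 15), in each pooled library; bars are exact 95% binomial intervals. The 4 libraries lie between 65.6 and 70.8% for let-7a-5p and between 78.0 and 83.5% for let-7f-5p, and let-7c-5p rests on 3 to 26 reads.

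The deposited counts of members that neighbour each other in the genome were alike in some pairs and far apart in others. On mouse chromosome 13 let-7d-5p (chr13:48536078-48536099), let-7f-5p and let-7a-5p lie in a row on the minus strand with 1789 and 328 bases between their mature sequences. In KD cats this cluster had 1 read of let-7d-5p, 14 of let-7f-5p and 11 of let-7a-5p, and in NR cats 1, 64 and 64. In KD dogs it had 3, 72 and 62 reads in the same order, and in NR dogs 1, 16 and 19. The let-7f-5p and let-7a-5p entries of this cluster thus had counts close to each other in each library, and let-7d-5p was far below both. let-7f-5p and let-7a-5p each have an identical copy elsewhere, so these counts depend on how reads were assigned to copies. They do not give the output of this cluster. With copies summed, the ratio of let-7f-5p to let-7a-5p reads was 1.37 in NR dogs and 2.43 in KD cats, the lowest and highest of the libraries. On chromosome X let-7f-5p and miR-98-5p (chrX:151913229-151913250) lie 854 bases apart, with 71 and 0 reads in KD cats, 239 and 18 in NR cats, 255 and 3 in KD dogs, and 69 and 3 in NR dogs. On chromosome 15 let-7c-5p and let-7b-5p (chr15:85707325-85707346) lie 687 bases apart and were both low. let-7f-5p on chromosome X and let-7c-5p on chromosome 15 also have an identical copy elsewhere, so the same limit holds for their counts. The single-copy members outside these clusters are let-7e-5p (chr17:17830366-17830387), let-7g-5p (chr9:106178846-106178867) and let-7i-5p (chr10:122985698-122985719).

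The opposite arms of the let-7 hairpins were close to absent. Over the 12 listed 3p arms there was 1 read in KD cats, 2 in NR cats, 0 in KD dogs and 2 in NR dogs. The 5 miRNAs that share a transcript with let-7 members, or are paralogs of those that do, were summed as well: miR-99a-5p, miR-99b-5p, miR-100-5p, miR-125a-5p and miR-125b-5p. Their sum was 51 reads in KD cats and 75 in NR cats, a log2 change of 0.47 on the normalized values (-0.07 to 1.00), and 133 reads in KD dogs and 71 in NR dogs, a log2 change of 0.53 (0.10 to 0.97). The change in dogs lay below the dog median of all names (0.98). As a share of the reads the sum was lower in KD in both species, at 0.214% in KD cats and 0.401% in NR cats, and 0.210% in KD dogs and 0.340% in NR dogs. In cats the interval of its log2 change does not overlap that of the let-7 sum. miR-99b-5p, encoded next to let-7e, had 23 reads in KD cats and 22 in NR cats, a log2 change of 1.09 (0.18 to 2.0), and 50 reads in KD dogs and 32 in NR dogs, 0.27 (-0.40 to 0.96). miR-125a-5p of the same transcript had 23 reads in KD cats and 43 in NR cats, a log2 change of 0.12 (-0.68 to 0.89), and 54 reads in KD dogs and 25 in NR dogs, 0.73 (0.03 to 1.48). miR-125b-5p, whose paralogous copies neighbour let-7a and let-7c clusters, had 0 reads in KD cats and 6 in NR cats, and 19 reads in KD dogs and 7 in NR dogs, a log2 change of 1.06 in dogs (-0.25 to 2.56).

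The paper measured miR-21a and let-7b by quantitative PCR in single cats, not in pools. It reported that miR-21a over let-7b rose with serum creatinine and blood urea nitrogen. By that method let-7b was significantly lower in KD cats. let-7f, which its sequencing of the pools showed as lower in KD cats, did not differ significantly by PCR. The paper states that its sequencing and PCR results differed. The ratios below are of sequencing reads in pooled libraries, of cats and of dogs, so they are a different measure. A read ratio within a library does not depend on scaling. miR-21a-5p, a miRNA linked to renal fibrosis, had 143 reads in KD cats and 585 in NR cats, and 1120 reads in KD dogs and 211 in NR dogs. Its ratio to let-7b-5p was 35.8 in KD cats (13.7 to 133) and 32.5 in NR cats (20.4 to 55.2), and KD over NR was 1.10 (0.355 to 4.54). In dogs the ratio was 56.0 in KD (36.1 to 92.0) and 70.3 in NR (23.7 to 344), and KD over NR was 0.796 (0.150 to 2.72). With 4 and 3 reads of let-7b-5p in the KD cat and NR dog libraries, these pools cannot show a difference of several-fold either way. Against the whole family the ratio of miR-21a-5p was 0.986 in KD cats (0.777 to 1.25) and 0.882 in NR cats (0.788 to 0.988), and KD over NR was 1.12 (0.858 to 1.46). In dogs it was 1.75 in KD (1.59 to 1.93) and 1.17 in NR (0.956 to 1.44), and KD over NR was 1.49 (1.19 to 1.87). In cats miR-21a-5p and the let-7 sum were thus lower in KD by a like factor, within counting error, and in dogs miR-21a-5p was higher relative to let-7. Against let-7i-5p alone the ratio was 47.7 in KD cats (16.0 to 234) and 7.91 in NR cats (6.20 to 10.2). KD over NR was 6.03 (1.94 to 30.3), which rests on 3 reads of let-7i-5p in KD cats. In dogs KD over NR against let-7i-5p was 1.83 (0.783 to 3.93). Against let-7f-5p it was 0.871 in cats, with an interval that includes 1, and 1.38 in dogs (1.03 to 1.84). Against let-7a-5p it was 1.30 in cats (0.857 to 2.01) and 1.55 in dogs (1.11 to 2.15). Of the members with reads in both cat libraries, only let-7i-5p had an interval in cats that excludes 1.

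The names outside the family whose pattern over the 4 libraries was nearest to that of the let-7 sum were miR-92a-3p, miR-21a-3p and miR-22-3p, by Euclidean distance between log2 levels centred on their mean, out of 83 names with at least 10 reads in a library. miR-92a-3p, encoded in the same cluster as miR-17, was at a distance of 0.14, with 65 reads in KD cats and 273 in NR cats (log2 change -1.05), and 257 reads in KD dogs and 80 in NR dogs (1.31). miR-21a-3p, the passenger arm of miR-21a, was at a distance of 0.33 on 10 reads or fewer per library. miR-22-3p was at 0.71, with log2 changes of -1.97 in cats and 0.86 in dogs. The 4 points share their libraries and factors, so this likeness is a description.

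Marker miRNAs of white blood cells differed between KD and NR in the same directions as the let-7 sum on the normalized values, and in cats also as shares of the reads. Those of kidney tubules did so in cats. As a share of the reads the let-7 sum was nearly the same in KD dogs and NR dogs. Of 7 names listed for white blood cells, 5 are in the table, and together they had 63 reads in KD cats and 451 in NR cats, a log2 change of -1.81 (-2.22 to -1.43), and 123 reads in KD dogs and 6 in NR dogs, a log2 change of 3.98 (2.82 to 5.46). Their share of the mature reads was 0.265% in KD cats and 2.41% in NR cats, and 0.194% in KD dogs and 0.0287% in NR dogs. Most of these were miR-142-5p, with 62 reads in KD cats and 415 in NR cats, and 112 reads in KD dogs and 6 in NR dogs. miR-223-3p, a marker of neutrophils and monocytes, had 0 reads in KD cats and 5 in NR cats, and 7 reads in KD dogs and 0 in NR dogs. miR-142-3p had 0 reads in KD cats and 10 in NR cats, and 0 reads in both dog libraries. The 3 kidney tubule names (miR-192-5p, miR-194-5p and miR-204-5p) summed to 27 reads in KD cats and 130 in NR cats, a log2 change of -1.24 (-1.90 to -0.64), and to 801 reads in KD dogs and 337 in NR dogs, 0.87 (0.69 to 1.06). In dogs this lay below the median of all names (0.98), and the share of the tubule names was lower in KD, at 1.26% in KD dogs and 1.61% in NR dogs. The 6 epithelial names of the miR-200 family and miR-205 were higher in KD in both species when summed on the deposited factors, at 64 reads in KD cats and 75 in NR cats (log2 change 0.80, with 0.29 to 1.30), and 540 reads in KD dogs and 187 in NR dogs (1.15, with 0.91 to 1.40). As a share of the reads this sum was lower in KD, at 0.269% in KD cats and 0.401% in NR cats, and 0.852% in KD dogs and 0.896% in NR dogs. Of the 540 reads in KD dogs 388 were miR-141-3p, and miR-205-5p was lower in KD dogs (log2 change -0.89, with -1.99 to 0.17). Red blood cell names were dominated by miR-486-5p and miR-3107-5p, which the paper treats as the same mature miRNA, so these are not separate markers. The red blood cell names summed to 3025 reads in KD cats and 615 in NR cats (log2 change 3.32), and 6258 reads in KD dogs and 303 in NR dogs (3.99). By contrast, miR-451a had 1 read in KD cats and 32 in NR cats, and 20 reads in KD dogs and 8 in NR dogs. The part of these cells in the let-7 values was not tested.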

How the data were processed

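Total RNA of UExos was extracted with a column kit, pooled by group and made into 1 TruSeq small RNA library per group. The authors removed adaptors and short inserts and placed cat and dog reads on mm10, the mouse genome, with Bowtie 1.0.0, where several locations were allowed. The deposited read counts are per mouse small RNA feature and come from StrandNGS. CASAVA 1.8.2 is listed in the submitters' processing notes as well. The log2 values the authors deposited beside the counts were normalized by TMM and hold 0 where the result was below 0. Normalized values were therefore computed here as count times the library's factor. The 4 emptied lines of the table are not analysed here. Sequences and coordinates are those of the deposited table.

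Reads of genomic copies were summed by mature name. Ratios have exact conditional (Clopper-Pearson) intervals, shares exact binomial ones and odds ratios exact conditional ones, all at 95% and without p-values. In the folds given as at least a value, 3 counts stood in for a count of 0, while the exact limits were computed at 0. Intervals were tested on simulated counts that varied by counting error only, which says nothing of variation between pools. Alternatives were total count scaling, no scaling, DESeq2 1.42.0 and edgeR 4.0.16 factors within a species, totals without miR-10 or without miR-10, miR-486 and miR-3107, other minimum values (none, 50), folds (1.5, 3) and added constants (0.5, 5), and other handling of copies. Factors other than the deposited ones were centred on 1 within a species. Named miRNAs were all members and copies, miR-21a-5p, those entries of the lists that reached 10 reads in some library, and the 3 nearest names. miR-1961, miR-223-3p and the lists' other low entries were named after their values were seen. The members and lists were chosen with earlier results of these data known. The software was R 4.3.3 and Python 3.11.15 with scipy 1.17.1, numpy 2.4.6, matplotlib 3.10.9 and pandas 2.3.3.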

Additional observations from a re-analysis of the deposited data

Results flagged for a closer look

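On the normalized values, KD was lower than NR in cats and higher than NR in dogs, beyond the counting interval of each, for the let-7 sum and for 3 members. The dogs minus cats difference in log2 change was 2.62 for the sum, 2.78 for let-7a-5p, 2.38 for let-7f-5p and 4.76 for let-7i-5p. The difference was not tested, since each group is 1 library. It includes the shift of all names, whose median log2 change was 0.98 in dogs and -0.26 in cats. In dogs let-7a-5p and let-7i-5p turned lower in KD under 1 and 2 of the 7 scalings.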

How the results depend on the processing

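With the deposited factors replaced, the summed let-7 change in cats was -2.54 by total count scaling, -2.19 on read counts, -1.49 against the total without miR-10 and -0.64 against the total without miR-10, miR-486 and miR-3107. It was -1.56 without let-7f-5p. In dogs it was 0.23 by total count scaling, 1.83 on read counts, 0.83 by DESeq2's median of ratios, 0.63 by edgeR's TMM factors, 0.49 against the total without miR-10, miR-486 and miR-3107, and -0.01, a turned direction, against the total without miR-10. Under that last scaling let-7a-5p in dogs also turned, at -0.07 (-0.13 on chromosome 13 and -0.04 on chromosome 9), as did let-7g-5p at -0.25 and let-7i-5p at -0.30, and by total count scaling let-7g-5p was at -0.02 and let-7i-5p at -0.07. The members lower by over 2-fold in cats numbered 3 of 5 by DESeq2, where 33.9% of all names were lower, 3 of 5 by edgeR (25.0%), 2 of 5 against the total without miR-10, miR-486 and miR-3107 (17.5%), 5 of 5 against the total without miR-10 (41.1%), 6 of 6 on read counts (60.0%), 7 of 7 by total count scaling (71.7%), 1 with a mean of at least 50 and 3 at a fold of 3. Those higher in dogs numbered 5 of 5 on read counts, where 69.1% of all names were higher, 6 with no minimum, and 0 at a fold of 3 and under the other 5 scalings, where 7.94 to 23.4% of all names were higher. The median member change in cats was -2.72 by total count scaling, -2.15 on read counts, -1.52 by DESeq2, -1.25 by edgeR, -1.69 without miR-10, -0.85 without miR-10, miR-486 and miR-3107, -1.21 with the mean of the copies, -1.07 with no minimum and -1.09 with a mean of at least 50. In dogs it was 0.08, 1.76, 0.66, 0.46, -0.15 and 0.33 under the same 6 scalings in that order, and 1.08 with no minimum. The differences in counts follow in part from the number of members that reach the minimum, 5 to 7 in cats and 3 to 5 in dogs over the scalings. No share of all names is given for the counts with no minimum, with a mean of at least 50 or at a fold of 3.

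Taking only the copy with most reads, the family share was 0.492% in KD cats, 2.83% in NR cats, 0.791% in KD dogs and 0.685% in NR dogs, and with the mean of the copies it was 0.351, 2.17, 0.577 and 0.496%. Without let-7f-5p it was 0.252, 1.92, 0.494 and 0.455%, and without let-7a-5p 0.462, 2.55, 0.676 and 0.565%. In NR cats the share of let-7f-5p in the family was 37.4% with the mean of the copies and 51.4% without let-7i-5p, and that of let-7i-5p was 14.0% with the largest copy and 18.2% with the mean. The alternative without let-7i-5p was chosen after seeing the data. The KD over NR value of the miR-21a-5p to family ratio was 1.11 in cats and 1.52 in dogs with the largest copy, and moved by less than its interval with the mean of the copies too. No paired analysis was possible because each group is 1 library. Where the interval included 0, signs varied more: let-7d-5p and let-7e-5p in cats reached -0.35, and let-7c-5p in dogs lay below 0 under 5 of 7 scalings and let-7d-5p under 2. Depth limits let-7b-5p, let-7c-5p, let-7d-5p, let-7e-5p, let-7g-5p and miR-98-5p most, each with under 10 reads in at least 2 libraries.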
